A study of Schizosaccharomyces pombe with 2 samples.

Results

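Genes for mitochondrial protein import and membrane insertion in fission yeast (Schizosaccharomyces pombe) were examined for where their messenger RNAs end. They were chosen by a rule on names, with earlier results of these data known. The rule took every protein-coding gene called tim, tom, sam, mim, mdm, oxa, mic or pam followed by a number. That rule caught 41 names, of which tim11 and pam1 were left out, and the remaining 39 genes were taken from 5113 protein-coding genes. By its annotated product, sam1 encodes S-adenosylmethionine synthetase, an enzyme outside this theme, and mdm28 a putative potassium ion transporter. Replicates A and B, the 2 libraries, come from the wild-type strain labelled FWP9, in exponential growth at 30 °C in the rich medium YPD. They form a single group, and only genes were compared. Nothing in the labels tells whether A and B were separate cultures, so their spread may be purely technical. Poly(A) RNA was sequenced by 3' READS, which captures RNA ends so that each read marks a place of cleavage and polyadenylation (a poly(A) site).

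Most mitochondrial proteins are made in the cytosol and enter through TOM, the translocase of the outer membrane. From there SAM and MIM insert proteins into the outer membrane, small TIM chaperones carry hydrophobic proteins across the intermembrane space, TIM22 inserts carriers into the inner membrane, and TIM23 with its motor pulls proteins with a presequence into the matrix. OXA inserts proteins from the matrix side, MICOS shapes the inner membrane folds (cristae), and ERMES tethers the outer membrane to the endoplasmic reticulum. All 39 genes are called import genes here for short. They include 4 MICOS, 3 ERMES and 3 other mdm genes and sam1, which were grouped apart from the import roles.

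The bases that end at the most used poly(A) site are shown first for the 4 small TIM chaperone genes and for 4 genes with nearly all reads at 1 or 2 close positions, since these are the most read role and the sharpest ends described here. Each run is 30 bases, 5′ to 3′ on the sense strand, from RefSeq assembly ASM294v3, and its last base is the most used position. Capitals mark AATAAA, the canonical poly(A) signal, or the single-base variant of it nearest to the site.
tim8, chrI:180940-180969, plus strand: aaaatcatgAATAAAatccagttcatgttt
tim10, chrI:947822-947851, minus strand: atacaataAATAAAattaatttatagtatt
tim13, chrI:4484461-4484490, plus strand: aactgaatAATAATgatttttttttctatc
tim9, chrIII:909658-909687, plus strand: attcttaaAATGAAatgatttttgttcttc
tom40, chrII:1357717-1357746, plus strand: ctttcaAATAAAattcatgtctaatggtgg
mdm31, chrI:1935972-1936001, minus strand: aaattattatAATAACaattattatttttg
mic26, chrIII:1776443-1776472, minus strand: tttaaagaAATGAAatctttttgatcacat
tim50, chrII:1400018-1400047, minus strand: tcaattcaacctacAAAAAAgtattctttt
In the 4 small TIM genes the last base of the marked hexamer lay 15 bases upstream of the site in tim8 and 16 bases upstream in tim9, tim10 and tim13. It lay 18 bases upstream in tom40, 14 in mdm31, 16 in mic26 and 10 in tim50. Reads were counted only up to 400 nt after the stop codon. The tom40 and tim50 runs end at 395 and 400 nt, while their annotated ends lie at 576 and 630 nt, so any later sites are not seen.

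Reads were counted in a window of 400 nt after the stop codon, with position 1 as the first base after it. These windows held 50971676 reads of A and 54744502 of B over all protein-coding genes. The 39 genes held 132254 of those of A (0.259%) and 138748 of those of B (0.253%). At least 50 reads in each replicate were required for a gene to be called measured. By that rule 27 of the 39 genes were measured, where 74.7% of all protein-coding genes were. Median reads in the 27 measured genes were 1029 (A) and 744 (B), against 655 and 548.5 for all 3818 measured genes. A low read number can mean fewer cells that make the RNA, less RNA per cell or ends past the window, and these cannot be told apart.

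Ends past the window bear on this set. RefSeq places the 3' end over 400 nt downstream of the stop codon in 15 of the 39 genes, where 28.8% of all genes have such an end. Of those 15 genes 9 were measured, and of all 1473 such genes 885 were (60.1%). Among the other 24 import genes 18 were measured, against 2933 of 3640 genes overall (80.6%). In these 15 genes the reads describe only the sites within the first 400 nt.

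**Figure D1:**
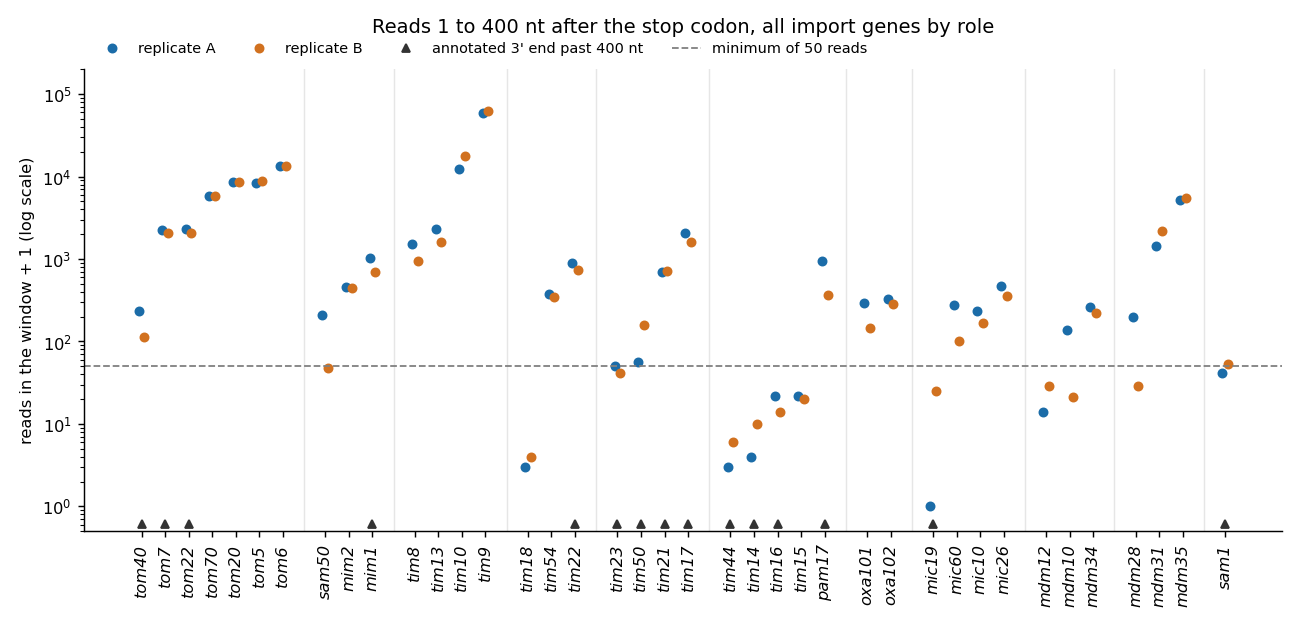
Reads in the 400 nt after the stop codon (log axis, 1 added to each value) for all 39 genes, ordered by role and then by mean, with replicate A in blue, B in orange, the minimum of 50 reads as a dashed line and triangles for annotated 3' ends past 400 nt. Points for TOM and the small TIM chaperones lie above the dashed line throughout, while 4 of the 5 motor genes lie under it in both replicates.

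The read-weighted mean position of the poly(A) sites had a median of 171 nt over the 27 measured genes (162 in A, 183 in B), against 143 nt for all measured genes (144 in A, 143 in B). The middle gene of the 27 was mic60, which lay at 136 nt in A and 207 nt in B. Of the 27 genes, 18 lay above the median of all measured genes, which by definition has as many genes above it as below. The 9 genes with an annotated end past 400 nt had a median of 298 nt and all 9 lay above it, where 605 of 885 such genes overall did, with a median of 210 nt. For the other 18 genes the median was 136 nt and 9 lay above it, against a median of 130 nt for 2933 such genes overall. The higher median of the import genes thus stood beside a larger share of annotated ends past the window, whose part in it was not tested.

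The width, the distance between the 10th and the 90th percentile of the reads, had a median of 76 nt against 62.5 nt over all measured genes. In replicate A it was 78 nt against 59.5 nt, but in replicate B 58 nt against 57 nt, so B showed almost no difference. For genes without an annotated end past the window the median width was 47.5 nt in the import genes and 54 nt over all such genes, the opposite order. That order held in B (42.5 nt against 51 nt) but not in A (53 nt against 51 nt). At the median gene, 38.5% of reads ended at the most used position, against 44.8% over all measured genes, and the effective number of sites (the number of equally used positions with the same entropy) was 6.14 against 4.73. Values for single genes ran from 1 position with nearly all reads to spreads across most of the window.

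**Figure D2:**
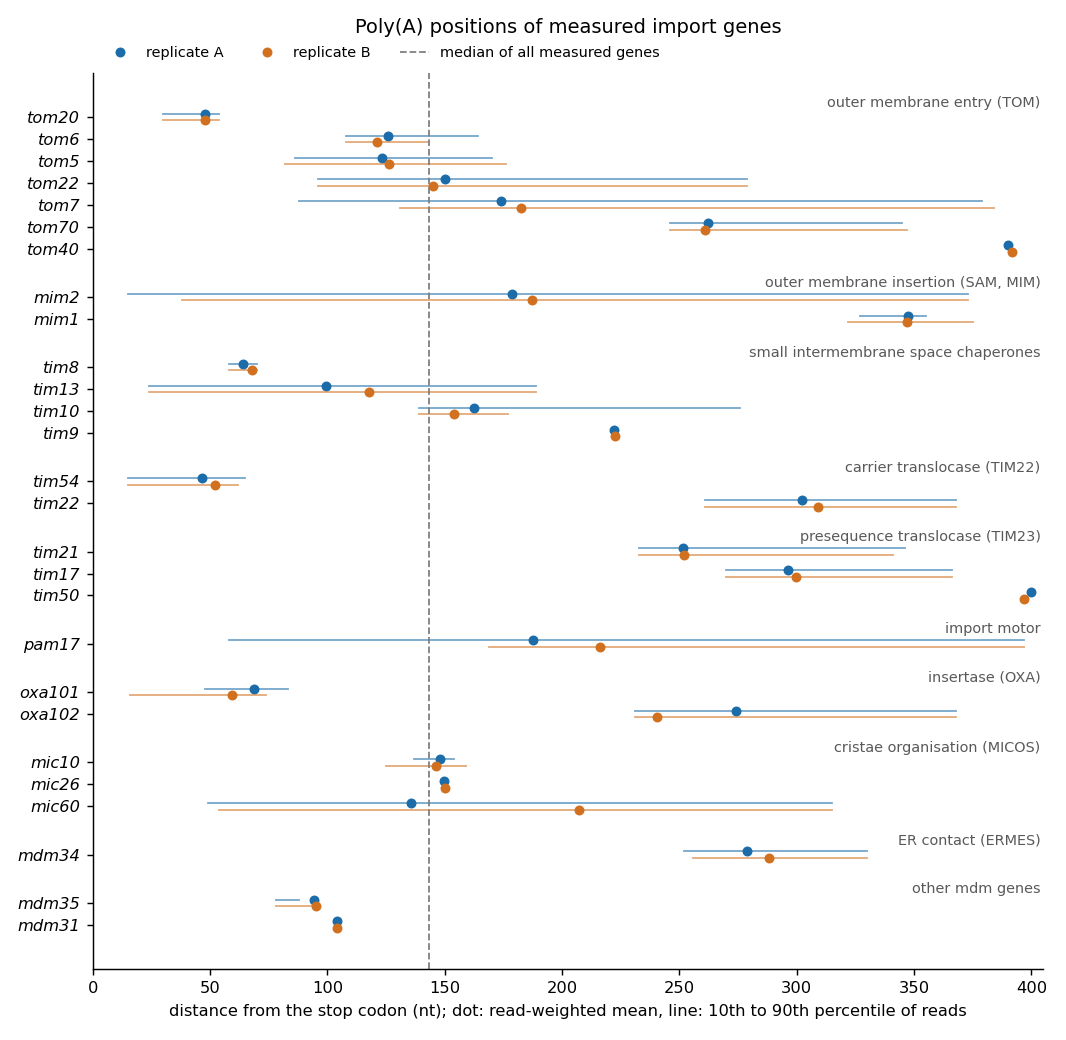
Read-weighted mean position (dots) and 10th to 90th percentile of reads (lines) in replicate A (blue) and B (orange) for the 27 measured genes by role, in nt from the stop codon, with the median of all measured genes (143 nt) dashed. The range runs from tom20 at 47.8 nt to tim50 at 398 nt, and mic60 is the gene whose dots lie farthest apart.

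All 7 TOM genes were measured, with mean positions from 47.8 to 391 nt (median 148 nt) and median read numbers of 5877 (A) and 5849 (B). Tom20, a receptor for presequences, had the smallest mean position of all measured import genes. Its mean position was 47.9 nt in A and 47.7 nt in B, and 59.1% ± 0.482 (SD, n = 2) of its 8487 and 8515 reads ended 54 nt after the stop codon, 2 nt short of the annotated end at 56 nt. Further tom20 sites at 30 and 40 nt took 14.5% ± 1.15 and 13.1% ± 2.90. Tom70, the receptor for carrier precursors, ended much farther out, at 262 nt in A and 261 nt in B. Its reads divided between sites at 246 nt (34.4% ± 0.611) and 253 nt (37.1% ± 0.255), so a pair of neighbouring positions shared most of them in both replicates.

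Tom40 forms the pore of the translocase. It had 235 reads in A and 111 in B, the fewest of the TOM genes, with mean positions of 390 and 392 nt. A single position at 395 nt took 91.1% of them in A (95% Wilson interval 86.7% to 94.1%) and 99.1% in B (95.1% to 99.8%). Such intervals cover counting error only, since reads of 1 library are not independent molecules. The annotated end of tom40 lies at 576 nt, past the window, so its deposited profile covers only sites up to 400 nt.

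Tom22, a central receptor that also organises the complex, had 5 sites of at least 10% each. Those at 96, 102, 108 and 112 nt took 18.6% ± 4.72, 17.2% ± 0.462, 21.2% ± 0.494 and 13.9% ± 1.39, and a distal one at 279 nt took 11.1% ± 0.167. The most used of them differed between replicates, at 96 nt in A and 108 nt in B, while the mean position was 150 and 145 nt. The small subunits Tom5, Tom6 and Tom7, which stabilise the complex, gave mean positions of 125 ± 2.15, 124 ± 3.20 and 178 ± 6.03 nt. Tom5 had the most dispersed sites of the 3, with an effective number of 18.2 and 19.3% ± 1.01 of reads at the most used position of each replicate. Reads of tom7 were mostly at 133 nt (47.8% ± 1.30), but its width of 272 ± 26.9 nt was among the 3 largest, with 14.7% ± 3.94 of reads ending between 301 and 400 nt. Tom6 is annotated in RefSeq as an uncharacterized protein, and its 13370 and 13336 reads were the most of the TOM genes.

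Sam50, the beta-barrel insertase of the outer membrane, had 207 reads in A but 47 in B and was not measured. Both subunits of the MIM insertase, which in budding yeast inserts helical outer membrane proteins, were measured. Mim1 lay at 347 nt in both replicates, differing by 0.199 nt, with its most used position at 350 nt (46.6% in A and 28.0% in B). Its annotated end, at 1240 nt, was the farthest among the import genes. Mim2 had a mean position of 179 nt in A and 187 nt in B and the widest spread of all, 346 ± 16.3 nt. Of its reads, 18.7% ± 1.14 fell in the first 100 nt, 58.3% ± 1.36 at 101 to 200 nt and 22.5% ± 0.233 at 301 to 400 nt, with 0.546% ± 0.452 between. Mim2 thus had proximal, central and distal groups of sites, each with a like share in both replicates. Single sites differed more, such as that at 161 nt with 27.3% of mim2 reads in A and 19.9% in B and that at 159 nt with 4.55% and 12.4%. RefSeq annotates no 3' UTR for mim2.

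The 4 small TIM chaperone genes had the most reads of any role, their medians being 7332.5 (A) and 9787.5 (B). Their products form ring-shaped hexamers, Tim9 with Tim10 and Tim8 with Tim13, that shield hydrophobic precursors in the intermembrane space. Tim9 and tim10 differed in the place and sharpness of their ends. Of 59433 and 63145 tim9 reads, 97.9% ± 0.0610 ended at the single position 222 nt, 27 nt short of the annotated end at 249 nt. Tim10 had 12365 reads in A and 17951 in B, with 68.8% ± 5.11 at 142 nt and 13.9% ± 2.11 at 139 nt. That main site is 54 nt past the annotated end at 88 nt, and none of its reads fell in the first 100 nt. The mean position of tim10 was 64.3 ± 6.15 nt nearer to the stop codon than that of tim9 (59.9 nt in A and 68.6 nt in B).

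Tim8 and tim13 had fewer reads, 1538 and 933 for tim8 and 2300 and 1624 for tim13. Tim8 ended close to the stop codon, at 58 nt (51.1% ± 5.67) and 70 nt (25.3% ± 5.15), well before its annotated end at 158 nt. Tim13 used a proximal site at 24 nt (35.4% ± 6.83) and distal ones at 164 nt (34.1% ± 3.90) and 189 nt (17.7% ± 3.55). Replicate A had 40.3% of tim13 reads at 24 nt (95% Wilson interval 38.3% to 42.3%) and 31.3% at 164 nt, while B had 30.6% (28.4% to 32.9%) and 36.8%. The most used position of tim13 therefore differed between replicates, and its mean position was 99.4 nt in A and 118 nt in B. The proximal site is the one printed above, and the first 6 bases of that run belong to the coding sequence and its stop codon.

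**Figure D3:**
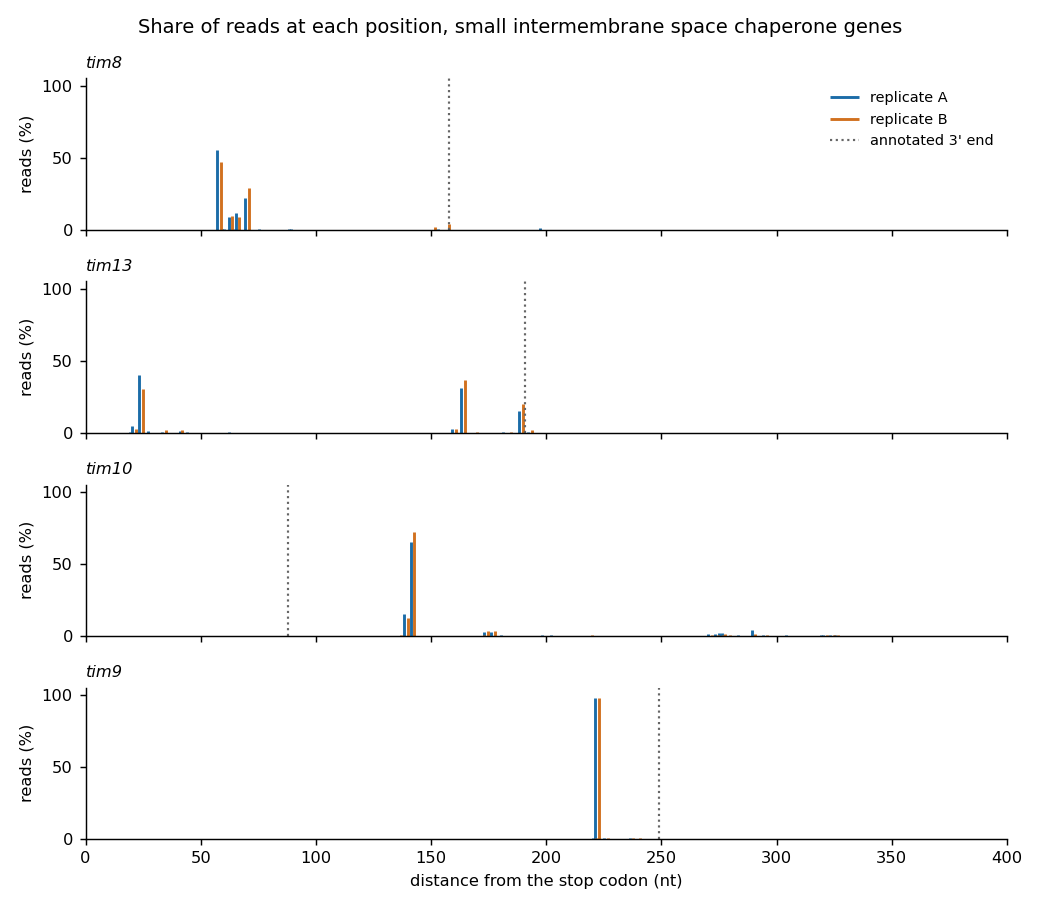
Share of reads (%) at each position in the 400 nt after the stop codon for the 4 small TIM chaperone genes, with replicate A in blue, B in orange (drawn slightly apart) and the annotated 3' end dotted. Tim9 has 1 position with 97.9% of reads, tim10 lies past its annotated end, and tim13 has a proximal and a distal group of sites.

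Of the 3 TIM22 genes, tim22 and tim54 were measured. Tim22, the channel-forming subunit, had 894 and 744 reads, a mean position of 302 nt in A and 309 nt in B, and the second highest effective number of sites among the measured import genes at 14.7. No position held more than 18.7% in either replicate, and the most used one was 368 nt in A and 363 nt in B. Tim54, in budding yeast a TIM22 subunit that faces the intermembrane space, ended at 46.4 nt in A and 52.0 nt in B, with its most used site at 59 nt (31.5% ± 1.05). A further tim54 site at 15 nt took 27.9% in A and 13.1% in B. Tim18, which in budding yeast is related to a membrane anchor of succinate dehydrogenase, had 2 and 3 reads.

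Genes of the TIM23 translocase and its motor had late annotated ends. All 4 TIM23 genes and 4 of the 5 motor genes have an annotated end past 400 nt, which makes 8 of 9, where 28.8% of all genes have such an end. Of the 9 genes 4 were measured, beside 74.7% of all protein-coding genes and 60.1% of those with such an end. Tim17, a core membrane subunit, had 2070 and 1594 reads with 59.7% ± 2.04 at 270 nt, and mean positions of 296 and 300 nt. Tim21, which links TIM23 to TOM and the respiratory chain, lay at 252 nt in both replicates (difference 0.313 nt) with its main site at 238 nt (37.9% ± 2.71). Its profiles were less alike than these means: a tim21 site at 244 nt held 24.5% of reads in A and 0% in B, one at 233 nt held 7.10% and 18.8%, and 61.6% of reads were placed alike, against a median of 74.3% over all measured genes. Tim50, the presequence receptor, had the largest mean position, 400 nt in A and 397 nt in B. Of its 55 and 159 reads, 96.3% ± 2.72 ended at the last position of the window. Its annotated end is at 630 nt, so that position is where the table stops and not necessarily where its sites do. Across all measured genes the most used position was 400 nt in 6 genes and 399 nt in 2, in a range of 1 to 7 genes for each of the last 10 positions. Tim23, the channel subunit, had 50 and 41 reads.

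The motor genes other than pam17 had few reads in the window. Pam17, a subunit of the presequence translocase motor, had 944 reads in A and 363 in B, with its main site at 169 nt (44.0% ± 2.03) and a further one at 397 nt (11.6% ± 1.47). Its mean position was 187 nt in A and 216 nt in B and its width 339 and 228 nt, so its replicates differed by 28.5 nt. Tim44, the motor's scaffold, had 2 and 5 reads. For the J-domain pair the counts were 3 and 9 in tim14, the co-chaperone that stimulates the motor's Hsp70, and 21 and 13 in tim16, its regulator. Tim15, in budding yeast a zinc-finger chaperone of that Hsp70, had 21 and 19, and its annotated end lies at 132 nt. Reads inside the open reading frame were 65.6% of all tim16 reads in A and 91.2% in B, 54.8% of those of tim15 in B and 0% in A, and 58.3% of those of sam1 in B and 29.8% in A. These 3 are the import genes with over 50% of reads there in a replicate at 10 or more reads, and none of them was measured. How many of all genes pass this rule is not given here, so the 3 are named without a comparison.

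The 2 OXA insertase genes, oxa101 and oxa102, which encode related proteins, ended at different distances. Oxa101 lay at 68.9 nt in A and 59.2 nt in B, and oxa102 at 274 nt in A and 241 nt in B. The difference was 193 ± 16.8 nt (205 nt in A and 181 nt in B), several times the difference between replicates of either gene. In oxa102 the site at 231 nt took 56.3% in A and 72.8% in B, and a distal one at 368 nt took 32.8% and 11.0%. Both replicates thus used the same positions of oxa102 in different proportion. Oxa101 had its most used position over both replicates at 68 nt, 15 nt past the annotated end at 53 nt, with 19.8% of 293 reads in A and 45.2% of 146 reads in B. Reads inside its open reading frame made up 12.8% of its reads in A and 27.0% in B.

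Of the 4 MICOS genes, mic10, mic26 and mic60 were measured and had mean positions of 147 ± 1.26, 150 ± 0.206 and 171 ± 50.7 nt. Mic10, the core subunit that bends the membrane at crista junctions, had its most used position at 150 nt (34.2% ± 2.63). Only 49.1% of mic10 reads were placed alike by both replicates, against a median of 74.3% over all measured genes. Its site at 152 nt held 0% in A and 21.0% in B, and that at 154 nt held 13.7% and 0%. Mic26 ended at 149 nt (35.1% ± 1.17) and 151 nt (61.8% ± 4.73). These close sites held nearly all of its 465 and 359 reads, and its width was 2 nt. Mic60, the other core subunit, had 273 reads in A and 101 in B and the largest difference between replicates, at 136 nt in A and 207 nt in B. Its site at 54 nt took 17.2% in A (95% Wilson interval 13.2% to 22.1%) and 13.9% in B (8.44% to 21.9%), whereas the site at 315 nt took 10.6% (7.50% to 14.8%) and 37.6% (28.8% to 47.4%). Mic19 had 0 and 24 reads.

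Among the ERMES genes only mdm34 was measured. It had 260 and 220 reads and mean positions of 279 and 288 nt, with its main site at 271 nt (36.3% ± 14.9). Mdm12, which transfers lipids at the contact, had 13 and 28 reads. Mdm10, an outer membrane barrel, had 138 reads in A and 20 in B, of which 137 and 18 ended at the same position, 16 nt after the stop codon. Of the remaining mdm genes, mdm31 and mdm35 were measured. Mdm31, an inner membrane protein, had 97.6% ± 0.579 of its 1436 and 2157 reads at 104 nt, 9 nt short of its annotated end at 113 nt. Mdm35, in budding yeast a chaperone of lipid transfer proteins in the intermembrane space, had 5246 and 5522 reads, mostly at 78 nt (29.4% ± 12.0) and 88 nt (46.3% ± 7.52). Mdm28 had 195 reads in A and 28 in B, and sam1 40 and 53.

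Replicates placed the import genes with a median difference of 3.77 nt in mean position, against 5.18 nt over all measured genes. They lay within 10 nt of each other in 23 of 27 genes, where 66.1% of all measured genes did. The 4 others were mic60 (71.7 nt), oxa102 (33.5 nt), pam17 (28.5 nt) and tim13 (18.1 nt). The most used position was the same in both replicates in 21 of 27 genes, against 72.4% of all measured genes. It differed in mic60, oxa101, tim13, tim22, tom5 and tom22. The share of reads placed alike by both replicates had a median of 82.6% against 74.3%.

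Replicates lay closer together in genes with more reads. Import genes with 50 to 500 reads in the shallower replicate had a median difference of 8.55 nt (11 genes), those with 500 to 5000 reads 3.77 nt (9 genes) and those with at least 5000 reads 1.34 nt (7 genes). Over all measured genes the corresponding medians were 10.3, 3.69 and 0.692 nt, so within a depth class the import genes were on either side of the general level. Mdm31 stood apart in having the smallest difference, 0.0197 nt, at 1436 reads in its shallower replicate.

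**Figure D4:**
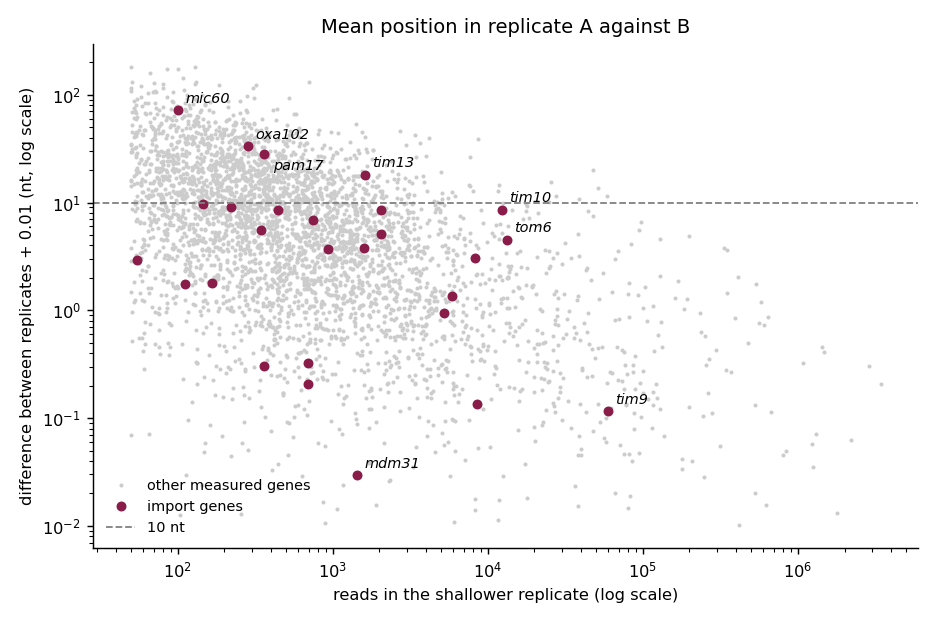
Difference in mean position between replicates (nt, log axis, 0.01 added) against reads in the shallower replicate (log axis) for all 3818 measured genes (grey) and the 27 import genes (dark red), with 10 nt dashed. Mic60, oxa102, pam17 and tim13 lie above the dashed line, and mdm31 and tim9 have the smallest differences among the import genes.

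Single-position ends were recorded as a width of 0 nt in both replicates. They occurred in 4 of 27 genes, tim9, tim50, tom40 and mdm31, where 3.43% of all measured genes had such ends. Of these, tom40 and tim50 have annotated ends at 576 and 630 nt, past the window. Their widths therefore cover only sites up to 400 nt. The 4 encode proteins of different places, an intermembrane space chaperone, the presequence receptor, the outer membrane pore and an inner membrane protein. Their depth varied, as tim9 and mdm31 had over 1000 reads in each replicate while tom40 and tim50 had 111 and 55 in their shallower ones. Mic26 came next with 2 nt.

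The hexamer AATAAA and the 18 variants that differ from it at 1 base were searched on the sense strand 10 to 40 bases upstream of the most used position. At least 1 of them was present in 24 of 27 genes, where 71.4% of all measured genes had one. AATAAA itself was present in 9 of 27, against 20.7%. Overlapping matches were allowed, and of all windows of 31 bases after the stop codons of the measured genes, 36.1% held any variant and 4.95% held AATAAA. The 9 with AATAAA were tim8, tim10, tim21, tim54, tom6, tom20, tom40, mdm35 and oxa102. The 3 without a match are printed beside tim22, whose only match, GATAAA, lies 31 bases upstream of its site and outside the printed run.
oxa101, chrI:1976589-1976618, plus strand: ttctttaattactcatcaattttcattttg
pam17, chrI:1553832-1553861, minus strand: ctcaacttatagtacagacttttctcaagc
tim17, chrI:1450372-1450401, minus strand: tactgaatctaatctccatcttttttacat
tim22, chrII:3276725-3276754, plus strand: ctgcagttggtggaagccttgttataaagg
None of these runs has capitals because no variant ends at least 10 bases before the site within them. No match says only that these letters are not in the window searched.

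The genome base after the most used position was an A in 25 of 27 genes, where 97.6% of all measured genes had one there and 32.5% of the bases in the windows were A. The exceptions were tom5 and tom40, which have C. An A of the genome and the first A of the tail cannot be told apart, so such positions may lie short of the true cleavage site. This applies to the import genes and to the other genes alike.

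Most used positions were set against the annotated 3' ends. They lay more than 10 nt past the annotated end in 2 of 26 measured genes with an annotated 3' UTR, tim10 by 54 nt and oxa101 by 15 nt, where 8.77% of all such genes had this. The annotated end had a median of 329 nt in the 36 import genes with a 3' UTR against 262 nt for 4728 genes overall.

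The next coding gene downstream was on the same strand for 22 of the 39 genes, and for 2330 of all 5113 genes. It lay at a median of 787 nt, against 534.5 nt for all genes. In 8 of the measured genes it began within the 400 nt window, and in 1 of them, tim22, the most used position lay past its near end, where 9.77% of 1423 such genes had this. The stop codon of vac14, on the opposite strand, lies 300 nt from that of tim22. Of tim22 reads, 50.3% in A and 55.5% in B ended past that point (52.9% ± 3.66), and the most used position is 68 nt into the sequence opposite vac14. The bases of tim22 printed above are therefore antisense to vac14. Next to tom20, tim8, tim54, tim13, mdm31 and oxa101, the share of reads past the neighbour's near end was at most 0.585% on average.

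Tom22 and mdm10 are convergent neighbours, with 300 nt between their stop codons and no gene between them, and are the only adjoining pair in the set. Tom22 reads ended past the mdm10 stop codon in 6.90% in A and 3.23% in B. The mdm10 site at 16 nt falls 285 nt from the tom22 stop codon, 6 nt beyond the distal tom22 site at 279 nt, so these ends of opposite strands nearly meet. The sequences before both are shown because they face each other.
tom22, most used site, chrI:2031787-2031816, plus strand: ttaAATAACatttccttcaaaaatactggc
mdm10, chrI:2031993-2032022, minus strand: aatactcaaAATAAAatgatttttgatacg
In mdm10 the marked AATAAA overlaps the stop codon, and its last base lies 15 bases upstream of the site. No other import gene had the marked hexamer over its stop codon. With 20 reads in replicate B, mdm10 is described and not counted among the measured genes.

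**Figure D5:**
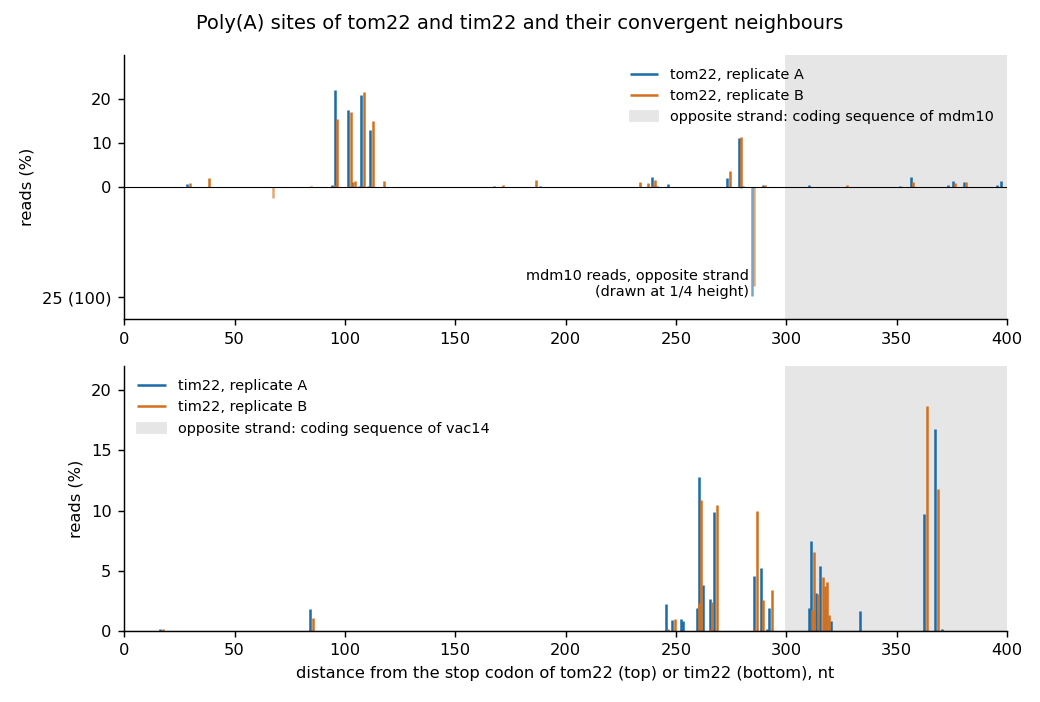
Share of reads (%) at each position for tom22 (top) and tim22 (bottom) in replicate A (blue) and B (orange), in nt from each stop codon, with the coding sequence of the convergent neighbour shaded. In the upper panel mdm10 reads, from the opposite strand, are drawn downward at reduced height, as marked, in paler colours, and in the lower one 52.9% of tim22 reads fall in the shaded part opposite vac14.

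Reads in the window were related to the length of the coding sequence within this set. Across the 39 genes Spearman's rho was -0.421, against 0.0173 across all 5113 genes. Genes are not independent and share both libraries, so this is a description. The 11 import genes with at most 300 nt of coding sequence (tom5, tom6, tom7, mim1, mim2, tim8, tim9, tim10, tim13, mic10 and mdm35) were all measured, and their median read numbers were 2300 (A) and 2054 (B). That limit was chosen after the values were seen. Over all 234 genes of this length 65.0% were measured, with medians of 384 and 349 reads. The other 28 import genes had medians of 247.5 and 128.5 reads, below the 358 and 300 of all longer genes.

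Processing peptidases, matrix chaperones and other factors that handle imported proteins were listed apart from the set. Of 22 names, 18 are present and 15 of these were measured, where 74.7% of all protein-coding genes were. The 15 had a median position of 127.5 nt, and 6 lay above the median of all measured genes, 143 nt. Replicates were within 10 nt in 8 of the 15, where 66.1% of all measured genes had this. Ssc1, the Hsp70 of the import motor, had 46097 and 46552 reads and a position of 127.5 ± 1.34 nt. Its nucleotide exchange factor gene mge1 lay far out at 382 ± 0.924 nt, and so did hsp10, the co-chaperonin, at 365 ± 0.398 nt. The annotated ends of mge1 and hsp10 lie at 554 and 422 nt, past the window. Their positions therefore cover only sites within it. The mitochondrial chaperonin gene mcp60 lay at 246 ± 27.8 nt. Mia40 and erv1, which oxidise small TIM proteins on entry, lay at 133 ± 7.10 and 106 ± 10.7 nt. The annotated end of mia40, at 545 nt, also lies past the window. The prohibitin partners phb1 and phb2 differed, at 344 ± 5.84 and 54.2 ± 0.470 nt. The peptidase gene mas2 was at 112 ± 3.79 nt, while qcr1, annotated as the beta subunit of the same peptidase, had 50 and 3 reads. Of the other 2 genes that were not measured, cox18 had 2 and 0 reads. The gene named ssp1 in fission yeast, which encodes a protein kinase of another theme, had 1 and 2. The annotated ends of qcr1, cox18 and ssp1 lie at 628, 489 and 1638 nt, past the window, so any later sites are not seen.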

How the data were processed

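Per the labels, 2 libraries of poly(A) RNA from wild-type S. pombe were sequenced by 3' READS. Bowtie is named in the submitters' processing notes; its version, settings and rule for reads with several matches are not stated in the labels or headers. The deposited tables' names carry the reference label Sp2023, which the labels do not explain. Per the file headers, the authors deposited a table per replicate and 1 merged table of 5289 features, each with read signal values and with the level at each position 1 to 400, a percent of the level at the highest. These deposited signal values are multiples of a step per table (0.930 in A, 0.869 in B), and 100% of 1957 and 2079 values of up to 100 reads came out whole within 0.1, so values were divided by the step. No count test was run, since there is 1 group of 2 libraries, and no p-value is given. Stop codons of all 5113 coding features were equal to RefSeq ASM294v3, which gave annotated ends, neighbours and sequence. Mean positions differed from the authors' deposited weighted average location by at most 0.0950 nt. Values are means of 2 replicates ± SD. Read totals per gene differed between libraries beyond counting error (chi-square per degree of freedom 404), so the libraries were treated as separate. The code was tested on simulated profiles. The members and lists were chosen with earlier results of these data known. Single genes were named by the smallest and largest positions (4 each, replicates within 10 nt), the 3 narrowest and 3 widest, the 3 largest replicate differences and most reads in the open reading frame, and otherwise to account for each gene. Python 3.11.15, numpy 2.4.6, pandas 2.3.3, scipy 1.17.1 and matplotlib 3.10.9 were used.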

Additional observations from a re-analysis of the deposited data

How the results depend on the processing

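The median position of the import genes, 171 nt, was 174 nt without replicate B and 185 nt without replicate A. It was 139 nt when only positions 1 to 300 were read, 136 nt over genes with an annotated end within 400 nt, 151 nt from the median position of the reads and 151 nt from the most used position. The median width, 76 nt, was 37 nt with positions 1 to 300, 47.5 nt over genes with an annotated end within 400 nt and 12.5 nt between the 25th and 75th percentile, and ran from 66 nt (without A) to 78 nt (without B). At least 200 reads per replicate left 22 genes measured, at least 10 reads gave 35, and a single replicate gave 28 (without A) or 31 (without B). A poly(A) signal variant was present in 24 genes, in 22 within 10 to 30 bases, in 23 to 24 with 1 replicate, and in 9 for AATAAA alone. Both window settings leave out distal sites by construction; the cause of the other shifts was not tested. No paired analysis was possible because there is only 1 group. The limits are the 400 nt window, which cuts 15 of the 39 genes short of their annotated end, and depth: 12 genes were not measured, and 11 of the 27 others had under 500 reads in a replicate.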
